A study of Mus musculus with 3 samples.

Results

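The transforming growth factor beta (Tgf-beta) pathway was examined in the genital tubercle of the mouse embryo through 10 genes: the ligands Tgfb1, Tgfb2 and Tgfb3, the receptors Tgfbr1, Tgfbr2 and Tgfbr3, and the intracellular transducers Smad2, Smad3, Smad4 and Smad7. The genes were chosen by name, with earlier results of these data known. Every probe set annotated to exactly 1 of these symbols was taken. This gave 25 of the 45037 probe sets that are not controls, and 10 of the 18193 genes with such a symbol. A probe set is a group of short oligonucleotides on the array that together report 1 transcript or part of it. Tgfb3 had 1 probe set and the other 9 genes had several.

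The genital tubercle is the outgrowth that later forms the penis or the clitoris. The series holds 1 group of 3 samples, all labelled male, embryonic day 14 and Theiler stage 22, from FVB/N females mated to SMAA/EYFP males, which carry a yellow fluorescent reporter named for smooth muscle actin (Acta2). The tubercle region was dissected by that fluorescence, no sample was pooled, and RNA was amplified in 2 rounds and hybridised to 1 array per sample, here called replicates 1, 2 and 3. There was no untreated, wild-type or other control group, and all 3 samples share the reporter, so the values describe 1 condition. The labels do not say whether the embryos came from separate litters, and animal, dissection, amplification and array are mixed in every difference between them.

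Tgf-beta ligands are secreted in a latent complex and, once released, bind a type II receptor (Tgfbr2), which recruits and activates the type I receptor (Tgfbr1). Tgfbr3, or betaglycan, is a co-receptor that presents ligand, above all Tgfb2. The activated type I receptor phosphorylates Smad2 and Smad3, which join Smad4 and act on genes in the nucleus, while Smad7 is induced by the pathway and inhibits it. In embryonic mesenchyme the pathway is known for its effects on matrix production, smooth muscle differentiation and exchange between epithelium and mesenchyme.

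Upstream windows of a ligand, a receptor and a Smad are shown to give 1 regulatory sequence for each step of the pathway. They are the 250 bases before the annotated start in RefSeq on GRCm38.p6, 5′ to 3′ on the strand of the gene, and capitals mark each GC box, GGGCGG on either strand, a motif bound by Sp1-type factors. The Tgfb1 window is chr7:25686752-25687001 on the plus strand, that of Tgfbr1 is chr4:47352972-47353221 on the plus strand, and that of Smad3 is chr9:63757995-63758244 on the minus strand.
Tgfb1: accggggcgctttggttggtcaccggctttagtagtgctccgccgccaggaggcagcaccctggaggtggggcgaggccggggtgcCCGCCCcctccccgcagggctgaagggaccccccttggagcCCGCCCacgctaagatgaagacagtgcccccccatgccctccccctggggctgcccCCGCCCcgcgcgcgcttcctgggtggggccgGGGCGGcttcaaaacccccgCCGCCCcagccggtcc
Tgfbr1: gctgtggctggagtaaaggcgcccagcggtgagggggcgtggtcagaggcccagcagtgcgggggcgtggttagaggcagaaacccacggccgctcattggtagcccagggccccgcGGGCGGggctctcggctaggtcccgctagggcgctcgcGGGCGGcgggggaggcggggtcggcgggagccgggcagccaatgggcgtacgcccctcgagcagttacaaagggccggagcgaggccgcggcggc
Smad3: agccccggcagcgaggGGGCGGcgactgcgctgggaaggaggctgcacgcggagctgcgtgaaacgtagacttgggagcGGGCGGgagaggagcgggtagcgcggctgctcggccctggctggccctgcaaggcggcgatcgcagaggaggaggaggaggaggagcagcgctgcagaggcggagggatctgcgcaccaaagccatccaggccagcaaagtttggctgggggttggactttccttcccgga
The window of Tgfb1 held 5 GC boxes, and those of Tgfbr1 and Smad3 held 2 each, counting overlapping matches separately. A GC box was found in 32.7% of the 32851 upstream windows of this length in the RefSeq table. The GC content of the 3 windows shown was 75.2%, 74.8% and 69.2%, against a median of 52.4% over all windows. In the windows examined but not printed, those of Tgfb2, Tgfbr2 and the second start of Tgfbr1, no GC box was found. Their GC content was 53.6%, 58.4% and 52.8%. The window of Tgfb2, like that of the second start of Tgfbr1, does not lie before the outermost annotated start of its gene. The Smad-binding letters CAGAC, on either strand, were in none of the 3 windows shown, at 2 positions in that of Tgfb2, at 1 each in that of Tgfbr2 and the second one of Tgfbr1, and in 42.2% of all windows. The letters CCAAT, on either strand, occurred at 2 positions in the printed window of Tgfbr1, at 1 in that of Tgfb2, at 2 in that of Tgfbr2, and in 33.8% of all windows. The arrays measure RNA and not promoter activity, so these matches describe the sequence only.

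The samples were checked before the genes were described. A probe set was called detected in a sample if its signal exceeded background, set at the 95th percentile of 83 probe sets for odorant, pheromone and bitter taste receptor genes. Background lay at 135 in replicate 1, 251 in replicate 2 and 197 in replicate 3. Deposited signals ran from 0.13 to 96445. Xist, the RNA that coats an inactive X chromosome, read 61883 in replicate 3 and 8.05 and 118 in replicates 1 and 2. The Y-linked genes Eif2s3y, Kdm5d and Uty were detected in replicates 1 and 2 but not in replicate 3. The male label is therefore in doubt for replicate 3, and the counts of detected member probe sets, member genes and pathway genes and of 2-fold differences were also made without it. In all 3 samples 7 of 8 tubercle mesenchyme markers and 7 of 8 epithelial markers were detected. Of all genes, taken by their brightest probe set, 60.6% were. Of the smooth muscle markers 4 of 9 were, including Acta2 itself, at 5273, 2736 and 2378 in replicates 1, 2 and 3.

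RNA of all 10 genes was detected. Each of the 10 had at least 1 probe set detected in all 3 samples, where 60.7% of all genes measured did. That measure favours genes with several probe sets, which were 9 of the 10 but 9010 of all 18193. The genes were also chosen with earlier results known, so this share is given for scale only. By probe set, 19 of 25 were detected in all 3 samples, against 48.1% of all probe sets, 1 in 2 samples, 1 in a single sample and 4 in none, against 35.3% of all. Without replicate 3 the count was again 19 of 25. All probe sets of 6 genes (Tgfb1, Tgfb2, Tgfb3, Smad2, Smad4 and Smad7) were detected in all 3 samples, whereas 4 genes (Tgfbr1, Tgfbr2, Tgfbr3 and Smad3) had some that were and some that were not. Of all 9010 genes with several probe sets, 48.2% were divided in this way. Signals of different probe sets depend on their probes and are not ranked against each other.

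**Figure D1:**
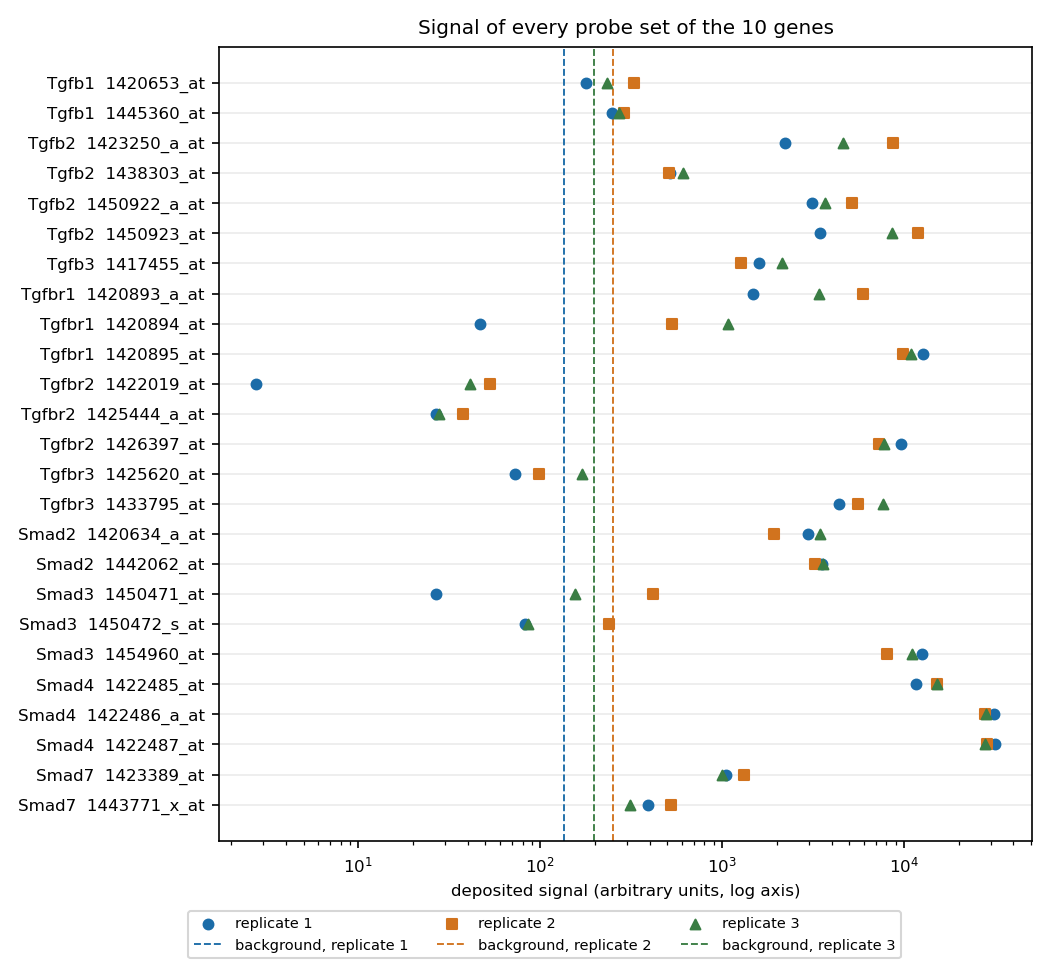
Deposited signal (log axis, arbitrary units) of all 25 probe sets of the 10 genes in the 3 samples, 1 symbol per sample, with the background of each sample as a dashed line. Both Tgfb1 probe sets lie close to the background lines, and 6 probe sets of Tgfbr1, Tgfbr2, Tgfbr3 and Smad3 have 1 or more samples below them.

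Among the ligands, Tgfb1 was the one closest to background. Its probe set 1445360_at read 248, 290 and 271 in replicates 1, 2 and 3 (269.6 ± 21.0, mean ± SD, n = 3). Its other probe set, 1420653_at, read 178, 326 and 232. The 3 samples were nearly level on the first probe set and replicate 2 was highest on the second. With background at the 99th percentile of the sensory receptor probe sets, neither Tgfb1 probe set was above it in 3 of 3 samples, so that the call for Tgfb1 rests on where background is set.

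Tgfb2, the ligand that depends most on the co-receptor Tgfbr3, was well above background on 4 probe sets. Probe set 1450923_at, which had the highest mean signal, read 3435, 11877 and 8631 in replicates 1, 2 and 3 (7981 ± 4258, SD, n = 3). Probe set 1423250_a_at read 2217, 8687 and 4625. Both were lowest in replicate 1 and highest in replicate 2, 2.95-fold and 3.35-fold apart after alignment of the samples on a common median. Probe set 1450922_a_at kept that order with a smaller range, at 3116, 5196 and 3677, or 1.42-fold between replicates 1 and 2. Probe set 1438303_at was flat at 516, 512 and 612. The change of Tgfb2 between samples thus differed by probe set, with a log2 difference of replicate 2 over replicate 1 that ran from -0.24 to 1.74.

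Tgfb3, a ligand known for its part in fusion of the palate, read 1589, 1276 and 2126 on its single probe set, 1417455_at (1664 ± 429.7, SD, n = 3). Replicate 3 was highest and replicate 2 lowest, 1.83-fold apart after alignment.

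The receptor Tgfbr1, the type I kinase that phosphorylates Smad2 and Smad3, gave different answers on its 3 probe sets. Probe set 1420895_at read 12682, 9861 and 10915 in replicates 1, 2 and 3 (11153 ± 1425, SD, n = 3), highest in replicate 1. Probe set 1420893_a_at read 1488, 5922 and 3426, lowest in replicate 1 and 3.40-fold apart between replicates 1 and 2 after alignment. Probe set 1420894_at read 46.8, 532 and 1082 and was below background in replicate 1, so that replicate 2 was at least 3.37-fold and replicate 3 at least 7.55-fold higher than replicate 1. These bounds are taken against the background of replicate 1. Replicate 1 was thus the highest sample on 1 Tgfbr1 probe set and the lowest on the other two.

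Tgfbr2, the type II receptor that binds ligand first, read 9660.2, 7265 and 7722 on probe set 1426397_at (8216 ± 1272, SD, n = 3). The samples lay within 1.56-fold of each other after alignment, with replicate 1 highest. Its other probe sets, 1422019_at and 1425444_a_at, stayed between 2.75 and 53.3 and were detected in no sample.

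Tgfbr3 read 4421, 5578 and 7641 on probe set 1433795_at (5880 ± 1631, SD, n = 3). Replicate 3 stood highest, 1.62-fold over replicate 1 and 1.51-fold over replicate 2 after alignment. Probe set 1425620_at of the same gene read 72.6, 98.3 and 169 and was detected in no sample.

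Of the receptor-regulated Smads, Smad2 was above background on both probe sets. Probe set 1442062_at read 3552, 3243 and 3572 in replicates 1, 2 and 3 (3456 ± 185, SD, n = 3), with the samples nearly level. Probe set 1420634_a_at read 2962, 1921 and 3471, lowest in replicate 2, which was 1.99-fold under replicate 3 after alignment. Replicate 2 was the lowest sample on both.

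Smad3, which shares its receptors and most of its partners with Smad2, read 12510.3, 8078 and 11034 on probe set 1454960_at (10541 ± 2257, SD, n = 3). Replicate 2 was lowest here. Probe set 1450471_at read 26.8, 419 and 155 and was detected in replicate 2 alone, at least 2.65-fold higher than in replicate 1 and 1.93-fold or more above replicate 3. Probe set 1450472_s_at, of a type that can match transcripts of more than 1 gene, read 82.6, 240.1 and 85.9, below background in each sample. Replicate 2 was thus the highest sample on 1450471_at and the lowest on 1454960_at. Values below background give no order of replicates 1 and 3 on 1450471_at, nor of any sample on 1450472_s_at.

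Smad4, the common partner of all receptor-regulated Smads, was nearly level across samples on 3 probe sets. Probe set 1422487_at read 31680.3, 28753 and 27761 (29398 ± 2038, SD, n = 3), 1422486_a_at read 31151, 28033 and 28353, and 1422485_at read 11624, 15256 and 15224. SDs of the aligned log2 signal were 0.19, 0.19 and 0.15, but replicate 1 was highest on the first 2 of these probe sets and lowest on 1422485_at. Each of these SDs was under the median of 0.36 over all probe sets detected in all 3 samples.

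Smad7, the inhibitory Smad and a direct target of the pathway, read 1052, 1328 and 1002 on probe set 1423389_at (1127 ± 176, SD, n = 3). Probe set 1443771_x_at, of a type whose probes can partly match other transcripts, read 391, 525 and 313. Both were highest in replicate 2 and lowest in replicate 3.

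The spread between samples was near that of all probe sets. The SD of the aligned log2 signal had a median of 0.31 over the 19 probe sets detected in all 3 samples, against 0.36 over all 21659 such probe sets, and 12 of the 19 lay under that value. It ran from 0.02 (Tgfb1, 1445360_at) to 0.89 (Tgfbr1, 1420893_a_at). Over 2-fold differences between some pair of samples were found in 3 of the 19, namely 1423250_a_at and 1450923_at of Tgfb2 and 1420893_a_at of Tgfbr1, against 28.1% of all probe sets. Between replicates 1 and 2 these 3 probe sets were over 2-fold apart, against a background of 20.2%, and all were higher in replicate 2. Between replicates 1 and 3 there were 2 (13.8% of all), both higher in replicate 3, and between replicates 2 and 3 there were 0 (9.89% of all). Without replicate 1 no member probe set passed 2-fold, so this count rests on that sample. Aligned instead on medians over all probe sets, the samples gave 8, against 43.2% of all probe sets.

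**Figure D2:**
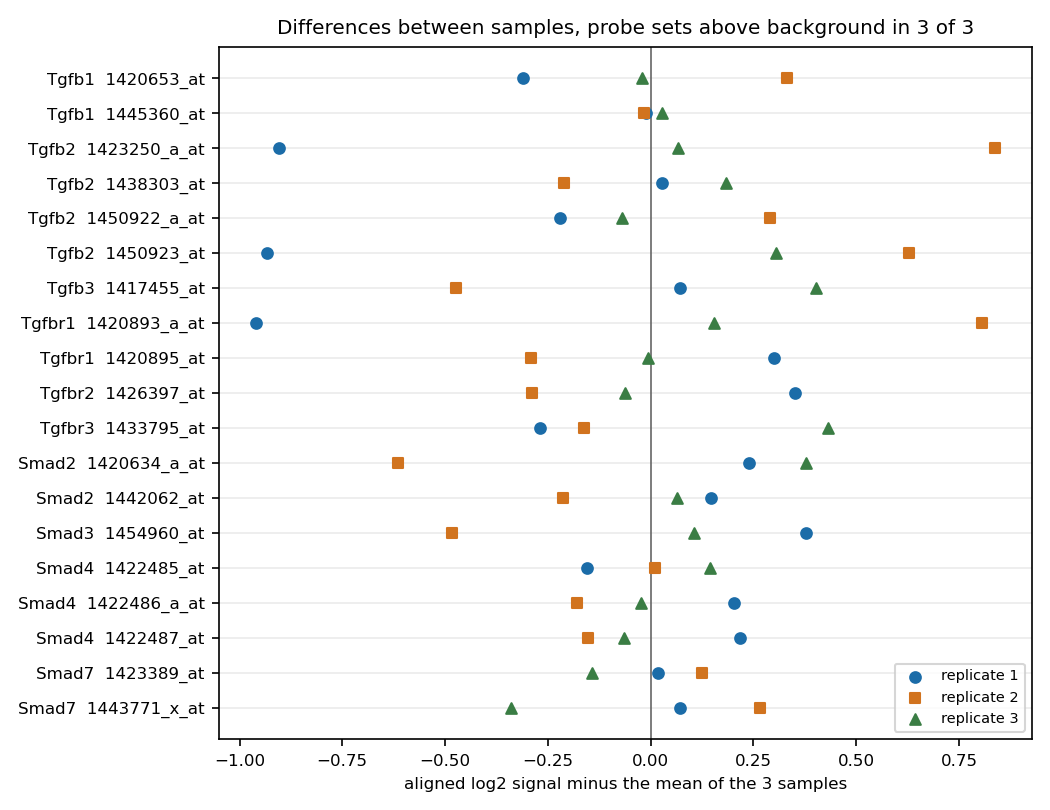
Aligned log2 signal of each sample minus the mean of the 3 samples, for the 19 probe sets above background in 3 of 3. In it 2 probe sets of Tgfb2 and 1 of Tgfbr1 place replicate 1 about 0.9 below the mean, while the brightest probe sets of Tgfbr1, Tgfbr2, Smad3 and Smad4 place it above.

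Probe sets of 1 gene did not always change together. Of the 6 genes with several probe sets detected in all 3 samples, Tgfb2 and Tgfbr1 had probe sets whose change between some pair of samples differed by more than 2-fold, against 55.2% of the 4758 such genes on the array. The span was 1.98 on the log2 scale for Tgfb2 and 2.36 for Tgfbr1 between replicates 1 and 2, and at most 0.71 for Tgfb1, Smad2, Smad4 and Smad7 in any pair. Control probe sets that bear on RNA length and amplification differed in the same samples. The ratio of the 3′ to the 5′ probe set of beta-actin was 7.38, 2.21 and 4.42 in replicates 1, 2 and 3, that of Gapdh 21.5, 14.9 and 14.1, and the median 18S signal 13587, 78759 and 60294. Replicate 1, with the highest ratios and the lowest 18S signal, was the sample with the lowest signal on the divergent probe sets of Tgfb2 and Tgfbr1. The part of RNA quality in these differences was not tested.

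The developmental landmark was the only label that differed, with fingers already visible in replicate 3 and only indented footplate borders in replicates 1 and 2, so replicate 3 was set against the mean of the others. No member probe set was called. With limma and Benjamini-Hochberg adjustment 0 of 21 member probe sets tested were called, against 0% of all 29121, and at an unadjusted p under 0.05 there were 0 of 21, against 2.1% of all. For Tgfbr1 on 1420894_at the fit used a signal of replicate 1 that is below background, so its log2 difference of 2.80 ± 1.54 (SE, adjusted p = 1.00 by limma) is no measured size, and it became 1.16 without replicate 1 and 4.44 without replicate 2. For Smad3 on 1450471_at the signals of replicates 1 and 3 were below background, so its log2 difference of 0.58 is no measured size either. With the samples aligned over all probe sets the difference for 1420894_at was 2.72, and every member probe set had the same SE of 1.15. Among the brightest probe sets of the 10 genes, Tgfbr3 was higher in replicate 3 by 0.65 ± 0.60 and Tgfb3 by 0.60 ± 0.64 (0.87 without replicate 1 and 0.33 without replicate 2), Tgfb2 by 0.46 ± 0.90 (-0.32 without replicate 1 and 1.24 without replicate 2), and Smad7 had the lowest value, at -0.21 ± 0.60. For Tgfbr3 and Tgfb3 replicate 3 lay above both other samples, for Tgfb2 it lay between them, and for Smad7 it lay below both. The median difference was 0.10 over the 21 probe sets and 0.04 over all. The contrast leaves 1 residual degree of freedom, and the variation of replicate 3 has to be taken from the other samples. In a simulation of the main setting even probe sets shifted by 64-fold did not pass the adjusted threshold. The lack of calls under that setting therefore does not show a lack of change. The contrast also cannot tell the landmark apart from the doubtful sex label of replicate 3.

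**Figure D3:**
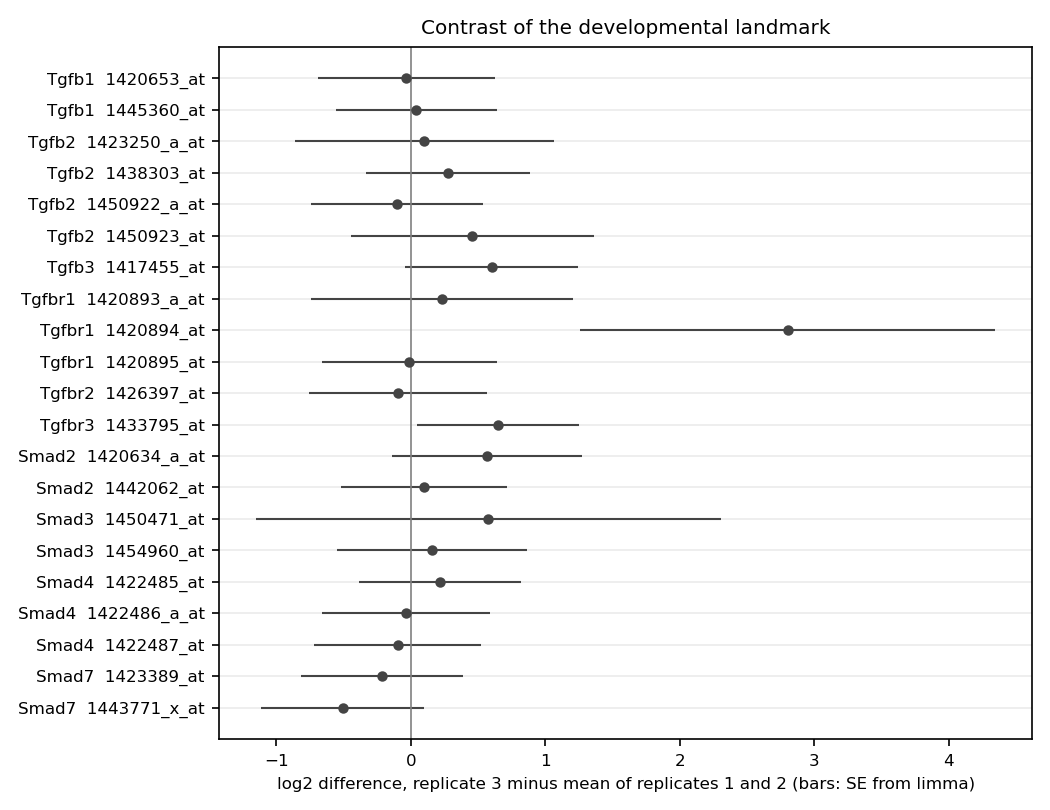
Log2 difference of replicate 3 from the mean of replicates 1 and 2 for the 21 member probe sets detected in 1 or more samples, with the SE from limma as bars. The differences lie between -0.51 and 0.65 except for Tgfbr1 1420894_at at 2.80, and the SEs are mostly as wide as the differences or wider. The value of Tgfbr1 1420894_at rests on a signal below background in replicate 1. That of Smad3 1450471_at rests on such signals in replicates 1 and 3.

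Other genes of the pathway were described by role, each by its probe set of highest mean signal. Of 76 genes listed, 72 were measured, 60 were detected in all 3 samples, against 60.6% of all genes taken by their brightest probe set, and 8 in none. In the landmark contrast 0 of 64 tested were called higher and 0 lower by limma, with 0 at an unadjusted p under 0.05, against 0% and 2.1% of all probe sets tested. Their SD of aligned log2 signal had a median of 0.32.

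Latency and activation genes, which store ligand in the matrix and release it, had 11 of 14 detected in all 3 samples. The integrin subunit Itgav, which binds latent Tgf-beta, was the most uniform (51523, 54755 and 52171 in replicates 1, 2 and 3, SD 0.07 on the aligned log2 scale), followed by decorin (Dcn), which binds ligand in the matrix (6244, 8488 and 7456). Ltbp4, a latent Tgf-beta binding protein, came next (518, 727 and 540.0). The activator thrombospondin 1 (Thbs1) varied most (418, 1781 and 661, SD 0.95), highest in replicate 2, and was followed by Emilin1, a matrix inhibitor of ligand maturation (3977, 3129 and 2281), and Nrros (661, 470 and 412). The epithelial activating subunit Itgb6 was detected in no sample.

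Accessory and partner receptors had 6 of 8 detected in all 3 samples. The type I receptor Acvr1b, which also phosphorylates Smad2 and Smad3, read 4221, 3167 and 2265, and the decoy receptor Bambi read 25598, 23607 and 13501, both lowest in replicate 3. Acvr2a, an activin type II receptor, was the most uniform (3015, 2739 and 3377). The co-receptor endoglin (Eng) of endothelium read 695, 871 and 520.2. Acvr1c was detected in no sample.

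Other ligands that signal through Smad2 and Smad3, with their antagonists, had 6 of 9 detected in all 3 samples. Inhba, the activin A subunit, read 3309, 5620 and 8002, lowest in replicate 1 and highest in replicate 3. Gdf11 (144, 422 and 201) and Lefty1 (587, 331 and 637) varied more, with SDs of 0.68 and 0.62, while Inha (970, 1117 and 1021) had an SD of 0.01 and Inhbb read 216, 344 and 311. Gdf11 was only just above background in replicates 1 and 3 (background 135 and 197), so its SD rests partly on signals near background. Nodal, its inhibitor Lefty2 and the activin antagonist Fstl3 were detected in no sample. The activin antagonist follistatin (Fst) read 1418, 1390 and 2390.

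Among the other Smads, 3 of 4 were detected in all 3 samples. Smad1 and Smad5, which carry Bmp signals, read 29979, 17584 and 33065 and 7304, 15390 and 17833, and the inhibitory Smad6 read 1638, 2560.1 and 948. Their SDs were 0.59, 0.62 and 0.66, and each had its lowest value in a different sample. Smad9 was detected in no sample.

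Cofactors, adaptors and repressors of Smads varied least of these lists, with a median SD of 0.20 and 12 of 13 detected in all 3 samples. The corepressor Ski read 6524, 8262 and 6520.0, Tgif2 3226, 3631 and 2915, and the coactivator Crebbp 16239.6, 21965 and 20886. The phosphatase Ppm1a (18965, 12445 and 12583) and the receptor adaptor Zfyve9 (3582, 2516 and 3933) varied most. The factor Foxh1, a partner of Smad2 in early embryos, was detected in no sample. Ubiquitin ligases had 6 of 6 detected in all 3 samples, among them Smurf2 (12497, 9783 and 11176), which acts with Smad7 to degrade receptors, Smurf1 (482, 694 and 689), which varied least, and Rnf111 (6183, 3824 and 5768), which varied most. The Smad-independent branch had 4 of 4, among them the kinase Map3k7 (2184, 1466 and 1390.3) and its binding partner Tab2 (17918, 15556 and 15678).

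Genes known as targets of the pathway had 12 of 15 detected in all 3 samples. The matrix proteins periostin (Postn; 20775, 19764 and 17238) and Tgfbi (20408, 21748 and 15633) and the transcription factor Snai2 (33138, 30008 and 34451) varied least. The early response factor Klf10 (4431, 2241 and 3541), the focal adhesion protein gene Tgfb1i1 (1914, 1216 and 924) and the cell cycle inhibitor Cdkn1a (1939, 1063 and 1071) varied most, with SDs of 0.62, 0.60 and 0.59. All 3 were highest in replicate 1. Junb was detected in no sample.

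**Figure D4:**
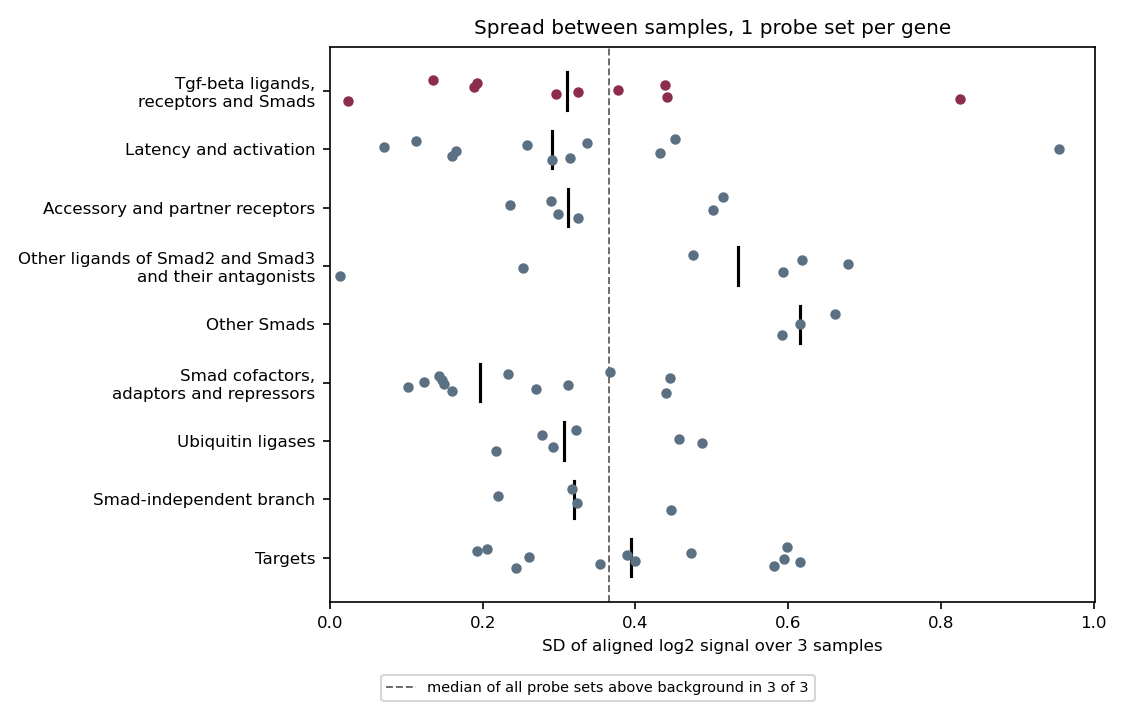
SD over the 3 samples of the aligned log2 signal, 1 probe set per gene detected in all 3 samples, for the 10 genes and each list of other pathway genes, with the median of each list as a bar. The 10 genes have a median of 0.31, the dashed line marks 0.36 for all probe sets, and Thbs1 has the highest value at 0.95.

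Marker lists differed between the samples to unequal extents. In replicate 1 6 of 6 liver markers exceeded the mean of replicates 2 and 3, with a median log2 difference of 3.77 and summed signals of 112475, 52054 and 9136 in replicates 1, 2 and 3. Skeletal muscle markers were higher there in 10 of 10 genes (median 1.72, summed signals 25798, 7887 and 3295), platelet and megakaryocyte markers in 4 of 5 (0.97, summed signals 10045, 2856 and 2956), macrophage markers in 7 of 8 (0.91, summed signals 8031, 5116 and 5804) and erythroid markers in 4 of 7 (1.11, summed signals 85436, 98301 and 81114). Epithelial markers were higher there in 8 of 8 genes (0.48, summed signals 110780, 95060 and 82861), smooth muscle markers in 7 of 9 (0.15, summed signals 11536, 8644 and 9963), endothelial markers in 5 of 9 (0.36, summed signals 12874, 13232 and 16009.5) and cartilage and bone markers in 2 of 5 (-0.08, summed signals 2047, 2891 and 2130). No marker was at 0, and the markers detected in no sample were Gp9, Hba-a1, Cnn1, Lmod1 and Myf5. These counts and medians include signals below background, among them Apoa1 at 14.9 and Fgb at 8.49 in replicate 3. Differences that rest on such signals are no measured size. Of all probe sets detected in all 3 samples, 43.6% were highest in replicate 1. Their median difference there was 0.12, close to the 0.15 of the smooth muscle markers. Tubercle mesenchyme markers had a median difference of -0.06 in replicate 1, 0.13 in replicate 2 and -0.09 in replicate 3. The 10 Tgf-beta genes had medians of 0.16, -0.28 and 0.07, against 0.12, -0.09 and 0.03 over all probe sets detected in all 3 samples. Single genes, each by its brightest probe set, ran from -1.40 (Tgfb2 in replicate 1) to 0.94 (Tgfb2 in replicate 2). The part of these cell types in the values of the 10 genes was not tested. In whole tissue fewer cells of a type, less RNA per cell and a difference in what was dissected cannot be told apart.

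**Figure D5:**
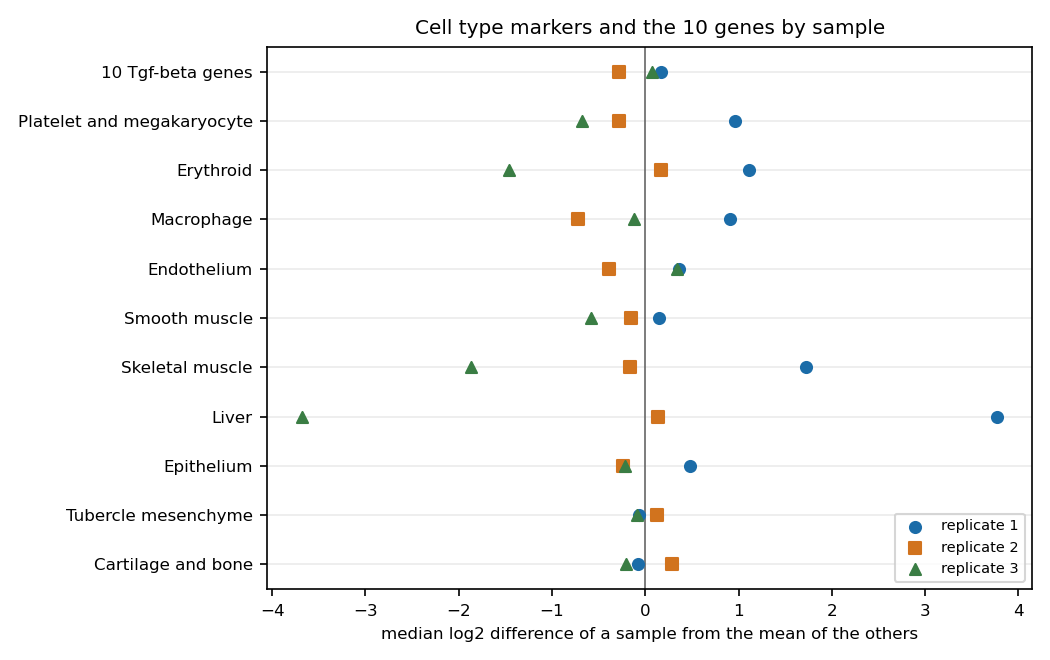
Median log2 difference between each sample and the mean of the remaining ones for the 10 Tgf-beta genes and each list of cell type markers. Liver markers run from -3.68 in replicate 3 to 3.77 in replicate 1, whereas the median of the 10 genes stays between -0.28 and 0.16. Marker signals below background are included.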

How the data were processed

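Per the labels, total RNA of 3 samples was purified with an RNeasy kit, amplified in 2 rounds, labelled with biotin and hybridised to 1 array each. The deposited values are linear intensities, 1 for each probe set on each array, which the submitters' processing notes credit to GCOS, Affymetrix scanner software. Its algorithm is not given in the sources used here. With 2% of values trimmed at each end every array had a mean of 1500.0, so the authors had scaled the intensities globally. A platform annotation named 34945 probe sets with 1 gene symbol, 932 with several and 9160 with none, and 64 control probe sets were set aside.

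Signals under 1 were set to 1, log2 transformed and aligned on each sample's median over the 21659 probe sets detected in all 3 samples. Those medians differed by 0.23 before alignment. Signals are printed as deposited, while folds, differences and SDs are after alignment. A fold between single samples, 1 of them below background, uses that background, whereas the landmark fit uses the signal itself. The landmark contrast was fitted with limma 3.58.1 (lmFit and eBayes, two-sided) in R 4.3.3 over the 29121 probe sets detected in 1 or more samples. In simulated data it called 0 of 60, 0 of 70 and 0 of 70 probe sets changed by 2, 8 and 64-fold, although 9, 57 and 69 had an unadjusted p under 0.05. Every member probe set is reported. Of other pathway genes, up to 3 of largest and of smallest SD in each list and those detected in no sample are named. The members and lists were chosen with earlier results of these data known. Alternatives were other background percentiles, alignments, filters and signal floors, a variance trend and leaving out each sample. Upstream windows were examined for Tgfb1, Tgfb2, Tgfbr1, Tgfbr2 and Smad3 only, and those of the other members were not examined. At most 10 probe sets held equal signals in a pair of samples. With 3 arrays, precision is limited by their number. The limma p-values rest on the difference between replicates 1 and 2, with a variance moderated over all probe sets tested. They do not cover variation beyond these samples. A planned comparison of protein sequences is not analysed here.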

Additional observations from a re-analysis of the deposited data

How the results depend on the processing

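With background at the 90th or 99th percentile, 19 and 17 of the 25 probe sets, 10 and 9 of the 10 genes and 62 and 58 of the 72 pathway genes were detected in all 3 samples. Leaving out 1 sample gave 19 to 20 probe sets, 10 genes and 60 to 62 pathway genes. Without replicates 1, 2 and 3 the median SD over all probe sets detected in all 3 samples was 0.27, 0.28 and 0.36. Over the member probe sets it was 0.25, 0.20 and 0.36. The number over 2-fold apart in some pair became 8 when samples were aligned over all probe sets, against 43.2% of all. It was 0, 2 and 3 without replicates 1, 2 and 3, against 9.89%, 13.8% and 20.2% of all probe sets. The landmark contrast called 86 probe sets with alignment on all probe sets and 1 among those detected in all 3 samples, none of them a member (1 member had an unadjusted p under 0.05 with the former), and 0 under the other settings run. With alignment on all probe sets every member probe set had the same SE, 1.15, so results under that setting rest on a common variance. The sign of the log2 difference turned for Tgfb1 when samples were aligned over all probe sets (-0.042) and with quantile normalization (-0.041). With replicate 1 or replicate 2 left out, a value with no test, the difference ranged from -0.32 to 1.24 for Tgfb2, -0.31 to 0.29 for Tgfbr1, -0.41 to 0.23 for Tgfbr2, -0.082 to 0.28 for Smad2, -0.27 to 0.59 for Smad3 and -0.28 to 0.088 for Smad4, so its sign rests on 1 sample there, and from 0.33 to 0.87 for Tgfb3. The cause was not tested. No paired analysis was possible because the samples form 1 group. Signals near background, above all those of Tgfb1, are the least certain.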
